A study of Mus musculus with 15 samples.

Results

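The regions described here are the H3K4me3 peaks of EL4 cells that also carry H3K27me3. They were chosen by the called intervals of these 2 marks: each member is an H3K4me3 peak, merged over both replicates, on an autosome, that shares at least 1 bp with a merged H3K27me3 peak. There were 302 such peaks among 17931 autosomal H3K4me3 peaks (1.68%), and the other 17629 are set beside them below. The number of members, their widths and overlaps and their support by replicates rest on the values that chose them and are a description. Acetylation, ATAC-seq, H3K36me2, genes and promoter sequence were not used in the choice.

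H3K4me3 is deposited by COMPASS (trithorax-type) methyltransferases around transcription start sites, mostly at CpG-rich promoters, and is a mark of active promoters. H3K27me3 is deposited by Polycomb repressive complex PRC2 in broad domains over genes that are held silent. Regions with both marks were first described in embryonic stem cells as bivalent and are known there for promoters of developmental regulators. H3K27 cannot be acetylated and trimethylated on the same tail, so H3K27ac and H3K27me3 found in the same interval lie on different tails.

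EL4 is a mouse T lymphoma line of strain C57BL/6N, grown untreated in serum, and every sample comes from this one line, so there is no treatment contrast. ChIP-seq lists for H3K4me3, H3K9ac and H3K27ac (narrow peaks), H3K27me3 and H3K36me2 (broad peaks) and ATAC-seq lists were used, with 2 replicates each, which the methods call technical. The lists hold positions without height or read counts, so depth is unknown, and a list says where a peak was called, not how strong the mark was. ChIP-seq of a cell population cannot tell both marks on 1 allele from 1 mark on each allele or in different cells. An exact permutation test of 2 against 2 samples cannot go below p = 0.33, and no test was run. Values are given with the spread between replicate lists (SD, n = 2) or with exact 95% binomial intervals, which cover counting error over peaks only.

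As a check of the label, all 9 T lineage markers examined (among them Cd3e, Lck, Cd2 and Thy1) had both an H3K4me3 and an H3K27ac peak at a gene end. Of 4 B cell markers 2 had H3K4me3 and 1 had H3K27ac, of 4 myeloid markers 1 had both, of 3 stromal markers 2 had H3K4me3 and 1 had H3K27ac, of 3 epithelial markers none had H3K4me3 and 1 (Krt8) had H3K27ac, and neither of the 2 neural markers had either mark.

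Promoter sequences of 4 genes are printed first, because all 250 bases before their annotated start lay within H3K4me3 and within H3K27me3 in each of the 4 replicate lists. They are the sequence over which both marks were called, and they differ in what else was called there. Each runs 5′ to 3′ on the strand of the gene, from RefSeq on GRCm38.p6, and capitals mark the dinucleotide CG.
Lef1: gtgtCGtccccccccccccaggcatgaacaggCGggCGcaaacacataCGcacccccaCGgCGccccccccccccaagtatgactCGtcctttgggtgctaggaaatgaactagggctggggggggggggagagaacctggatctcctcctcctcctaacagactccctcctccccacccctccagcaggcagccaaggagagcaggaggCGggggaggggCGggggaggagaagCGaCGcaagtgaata
Cdh22: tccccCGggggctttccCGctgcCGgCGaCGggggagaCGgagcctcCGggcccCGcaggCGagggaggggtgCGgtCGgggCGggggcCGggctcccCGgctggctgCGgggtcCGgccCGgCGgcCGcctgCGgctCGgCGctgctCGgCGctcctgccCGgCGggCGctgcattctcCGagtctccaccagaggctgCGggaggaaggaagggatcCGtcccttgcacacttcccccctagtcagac
Rictor: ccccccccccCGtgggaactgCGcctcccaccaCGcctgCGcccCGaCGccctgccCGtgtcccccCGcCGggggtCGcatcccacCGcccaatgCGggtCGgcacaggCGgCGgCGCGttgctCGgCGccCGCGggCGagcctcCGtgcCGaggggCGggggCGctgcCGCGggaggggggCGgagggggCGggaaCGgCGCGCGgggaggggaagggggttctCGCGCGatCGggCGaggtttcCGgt
Lhx2: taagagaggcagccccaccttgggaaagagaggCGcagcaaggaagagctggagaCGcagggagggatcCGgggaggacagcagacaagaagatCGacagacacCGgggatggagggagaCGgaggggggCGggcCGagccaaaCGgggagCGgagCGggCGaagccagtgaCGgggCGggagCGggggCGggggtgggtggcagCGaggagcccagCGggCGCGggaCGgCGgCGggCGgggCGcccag

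The window of Lef1, an HMG-box transcription factor of Wnt signalling and T cell development, is chr3:131110047-131110296 on the plus strand. It held 11 CG dinucleotides, and no H3K27ac or ATAC-seq interval reached it. The window of Cdh22, a cadherin of cell adhesion, is chr2:165234738-165234987 on the minus strand, with 30 CG dinucleotides and H3K27ac over all 250 bases but no ATAC-seq. The window of Rictor, a subunit of the mTORC2 kinase complex, is chr15:6708131-6708380 on the plus strand. It held 40 CG dinucleotides and was covered by H3K27ac and ATAC-seq over its whole length. The window of Lhx2, a LIM homeodomain transcription factor of forebrain and limb development, is chr2:38339031-38339280 on the plus strand, with 25 CG dinucleotides and neither H3K27ac nor ATAC-seq. H3K9ac covered all 250 bases at Cdh22 and Rictor in both replicates, 35 and 45 bases at Lhx2, and 89 bases in replicate 2 only at Lef1. The same pair of marks was thus found over promoter windows with and without H3K27ac and ATAC-seq, and all 4 windows held some H3K9ac. A window does not stand for the whole peak. The Lef1 peak holds further annotated starts of Lef1, and outside the window it carried both H3K27ac and ATAC-seq.

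Of the 31396 autosomal promoters in the RefSeq table (250 bases before to 50 bases after the start), 134 touched a member. Some of these lay only on the part of the peak outside H3K27me3, as at Fos. Some genes have several overlapping windows among them, as Lef1. Over the 134 promoters the median G+C content was 64.8% and the median number of CG dinucleotides was 23.5. In the 10201 promoters that touched another H3K4me3 peak these medians were 62.0% and 22. The 21061 promoters that touched no H3K4me3 peak had medians of 49.3% and 4. The motif searched was the dinucleotide CG, which reads the same on both strands, and 10 or more copies were found in 90.3% of the promoters at members, in 86.1% of those at other H3K4me3 peaks and in 44.0% of all promoters. The ratio of CG found to that expected from the C and G content had quartiles of 0.626 and 0.899 at members and 0.627 and 0.935 at other H3K4me3 peaks, so the ranges lay over each other.

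Members were narrower than other H3K4me3 peaks. Their median width was 933 bp (quartiles 476.5 and 1395, range 200 to 6382), and that of the others was 1410 bp (quartiles 661 and 2086). In replicate 1 of every set alone the medians were 896 and 1361.5 bp, and in replicate 2 alone 901 and 1373 bp, so the gap between the sets was larger than that between replicates. Of the members, 26.8% were at most 500 bp wide and 7.62% were 2000 bp or more, against 18.2% and 27.7% of the others.

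The overlap with H3K27me3 had a median of 629 bp and ranged from 3 to 4461 bp, and it was 602.5 ± 33.2 bp (SD, n = 2) over the single replicates. In all, 227 kb carried both marks, which is 69.6% of the 326 kb in the member peaks. An overlap of 1000 bp or more was found in 81 members and one under 200 bp, the bin of the broad peak caller, in 23. More than any other arrangement, the H3K4me3 peak lay wholly within an H3K27me3 peak, as 176 members did. A further 119 crossed an edge of the H3K27me3 peak, 2 touched the edges of 2 H3K27me3 peaks and 5 held a whole H3K27me3 peak inside them. Members wholly inside were narrow (median 638.5 bp), those at an edge had a median of 1320 bp with 51.7% of their length shared, and those that held a whole H3K27me3 peak had a median of 4067 bp with 24.4% shared. The inside members lay a median of 2317.5 bp from the nearest edge of the H3K27me3 peak, and 55 of them (31.2%) within 1000 bp of it.

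**Figure D1:**
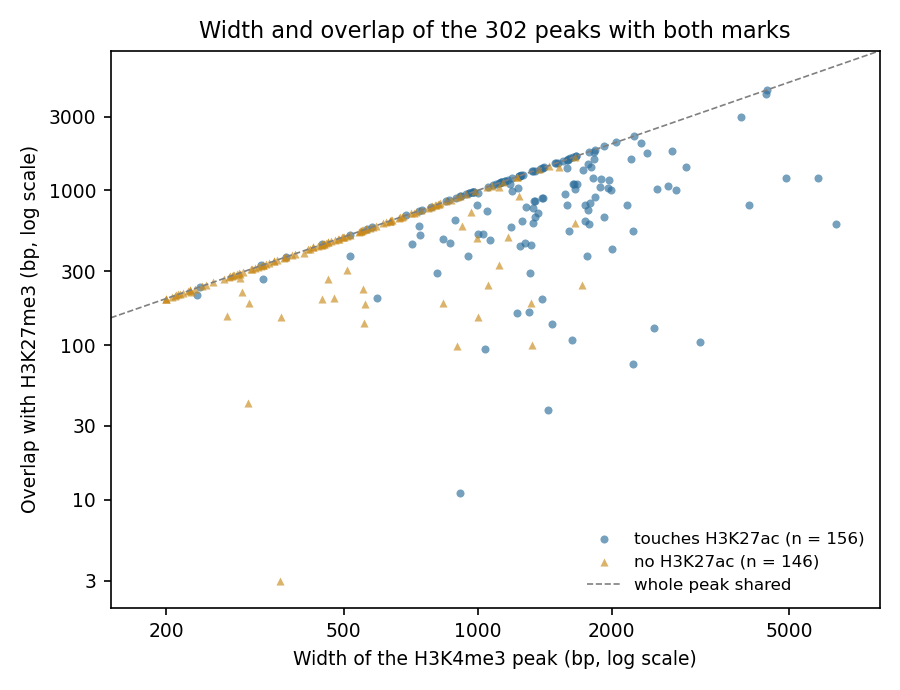
Width of each of the 302 H3K4me3 peaks (x axis, bp, log scale) against its overlap with H3K27me3 (y axis, bp, log scale). Blue circles are the 156 peaks that touch H3K27ac, orange triangles the 146 that do not, and the dashed line marks peaks shared over their whole width, on which the 176 inside peaks lie. Peaks without H3K27ac crowd at the narrow end of that line.

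Each member was assigned to the H3K27me3 peak with which it shared most, so the 2 members that touched a second one were counted once. The members thereby fell into 283 of the 43304 autosomal H3K27me3 peaks (0.654%), so over most of its extent H3K27me3 met no H3K4me3 peak. The H3K27me3 peaks with a member had a median width of 10199 bp, against 5599 bp for all of them. A wider interval has more length on which to meet another, and the part of this in the difference was not tested. Both replicates contributed to 214 of these 283 peaks (75.6%) and to 53.7% of all H3K27me3 peaks. Members were spread over all 19 autosomes, from 4 on chromosome 14 (0.573% of its H3K4me3 peaks) to 28 on chromosome 11. Their share of the H3K4me3 peaks was highest on chromosome 15, with 25 of 799 (3.13%), followed by chromosome 19 with 3.10% and chromosome 18 with 3.00%. These shares are not adjusted for the length in H3K27me3, which was 28.3 Mb on chromosome 15 and 9.01 Mb on chromosome 14. It was 32.6 Mb on chromosome 1, where the share was 1.20%.

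Support by replicates was uneven between the marks. An H3K4me3 interval of each replicate was found in 279 members (92.4%), the same share as in the other H3K4me3 peaks (92.4%). H3K27me3 of both replicates was found over 126 members (41.7%), of replicate 1 alone over 77 and of replicate 2 alone over 99. In 116 members (38.4%) all 4 lists agreed. These had a median width of 928 bp and a median overlap of 813 bp, while members with both H3K4me3 replicates had median overlaps of 554.5 bp where only H3K27me3 replicate 1 was called and of 640 bp where only replicate 2 was. The 23 members with 1 H3K4me3 replicate were narrow, with median widths of 209 to 274 bp in the classes of support. Single lists against single lists gave 191 to 217 H3K4me3 intervals with H3K27me3, or 1.09 to 1.22%. When base pairs had to be called in both replicates of a mark, 113 regions remained (0.644%), so the count depends on how replicates are joined by more than 1.5 times.

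Members touched acetylation, open chromatin and H3K36me2 less often than other H3K4me3 peaks did. H3K27ac, a mark of active promoters and enhancers, touched 156 of the 302 members (51.7%, 95% interval 45.9 to 57.4), against 91.4% of the others and a background of 90.7% of all autosomal H3K4me3 peaks. The single H3K27ac replicates gave 49.0% and 48.7% of members and 89.9% and 90.4% of the others. H3K9ac, the other mark of active promoters mapped here, touched 175 members (57.9%, interval 52.2 to 63.6) against 87.7% of the others and 87.2% of all. Its replicates gave 55.3% and 57.0% of members and 85.7% and 85.4% of the others.

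ATAC-seq, which maps DNA open to a transposase, touched 147 members (48.7%, interval 42.9 to 54.5), against 75.1% of the others and 74.7% of all. The replicates gave 40.1% and 43.7% of members, a mean of 41.9 ± 2.58% (SD, n = 2), and 68.7% and 72.3% of the others, a mean of 70.5 ± 2.54%. H3K36me2, a mark spread over active gene bodies and intergenic chromatin, touched 28 members (9.27%, interval 6.25 to 13.1), against 51.8% of the others and 51.1% of all. Each of its replicates gave 6.62% of members, and 41.7% and 39.3% of the others. With base pairs called in both replicates of every set, H3K36me2 touched 1.77% of members and 26.7% of the others, and ATAC-seq 31.9% and 65.8%. With members limited to peaks with at least 50% of their length shared, H3K36me2 touched 5.79% of them and 51.7% of the others. For all 4 readouts the members and the other peaks stood apart by more than the replicates of the readout did.

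**Figure D2:**
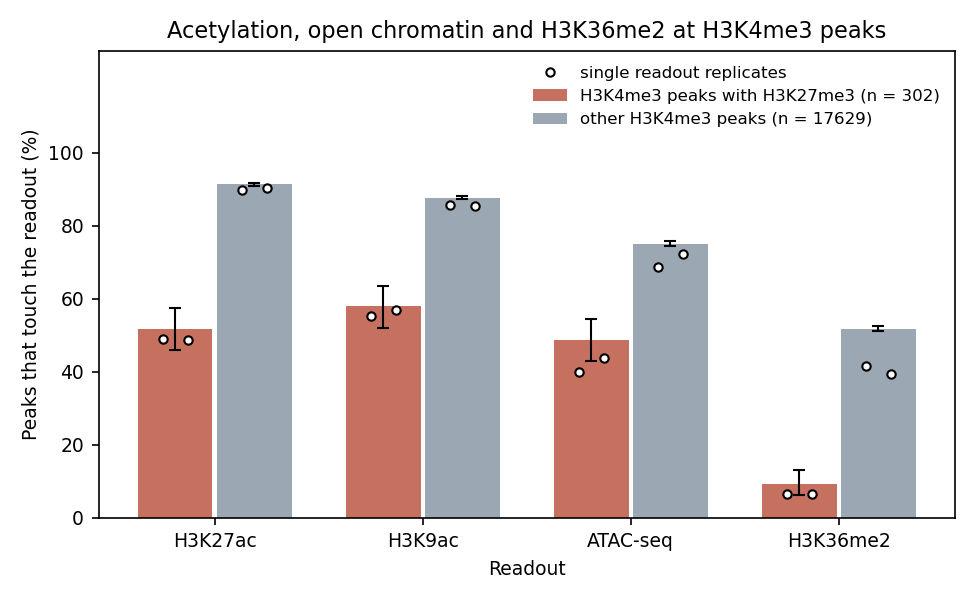
Share of H3K4me3 peaks (y axis, %) that touch H3K27ac, H3K9ac, ATAC-seq or H3K36me2 (x axis), for the 302 peaks with H3K27me3 (red) and the 17629 others (grey). Bars are merged readouts with exact 95% binomial intervals, and open circles are single readout replicates, which for members lie at 48.7 to 49.0% for H3K27ac and at 6.62% for H3K36me2, below those of the other peaks in each readout.

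Both acetylation marks were found together on 151 members (50.0%), H3K9ac alone on 24 (7.95%), H3K27ac alone on 5 (1.66%) and neither on 122 (40.4%). Of the other H3K4me3 peaks, 86.4% had both, 1.32% had H3K9ac alone, 4.94% had H3K27ac alone and 7.31% had neither. Where only 1 of the acetylation marks was called, it was thus mostly H3K9ac on members and mostly H3K27ac elsewhere. All of H3K27ac, H3K9ac and ATAC-seq were found on 114 members (37.7%) and on 70.4% of the others, and none of them on 99 members (32.8%) and on 5.20% of the others. The 114 were wide, with a median of 1577 bp, and the 99 were narrow, with a median of 428 bp. ATAC-seq without acetylation was found on 23 members (7.62%) and on 2.11% of the others.

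Width went with each readout, so the sets were also compared within classes of width. Of the 81 members of 200 bp to under 500 bp, 7.41% touched H3K27ac (interval 2.77 to 15.4) against 67.3% of other peaks of that width. From 500 to under 1000 bp it was 37.3% of 83 members against 86.7%, and from 1000 to under 2000 bp 83.5% of 115 members (interval 75.4 to 89.7) against 99.2%. All 23 members of 2000 bp or more touched H3K27ac, H3K9ac and ATAC-seq, as did nearly all other peaks of that width. H3K9ac ran from 6.17% through 49.4% and 92.2% to 100% of members in the 4 classes, and from 50.9% through 83.1% and 99.2% to 99.98% of the others. The difference was therefore found below 2000 bp and was widest among the narrow peaks.

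ATAC-seq touched 16.0%, 37.3% and 69.6% of members in the 3 lower classes of width against 38.4%, 55.4% and 87.6% of the others. H3K36me2 was found on 1 of 81, 1 of 83, 16 of 115 and 10 of 23 members, against 43.9 to 63.2% of the others, and in the widest class its interval (23.2 to 65.5%) held the value of the others. Weighting the other peaks to the widths of the members gave them 87.3% with H3K27ac, 81.9% with H3K9ac, 66.2% with ATAC-seq and 48.3% with H3K36me2, all above the members.

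**Figure D3:**
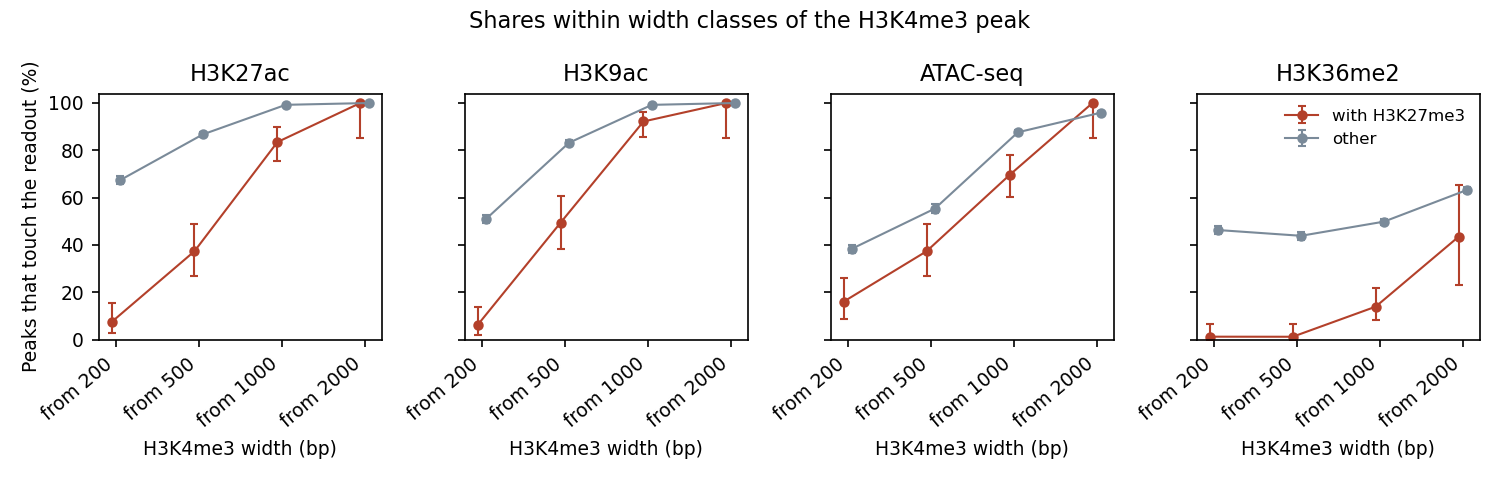
Share of H3K4me3 peaks (y axis, %) that touch each readout within 4 classes of H3K4me3 width (x axis, from 200, 500, 1000 and 2000 bp), for peaks with H3K27me3 (red) and others (grey). Points are shares with exact 95% binomial intervals, and the red points rise from 7.41% to 100% for H3K27ac and meet the grey ones only in the widest class.

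The 176 members wholly within H3K27me3 touched H3K27ac in 35.8% of cases, H3K9ac in 43.2%, ATAC-seq in 31.2% and H3K36me2 in 2.27%. In the 126 that lay partly outside it, the shares were 73.8%, 78.6%, 73.0% and 19.0%, and these peaks were wider. Peaks close to H3K27me3 but outside it touched acetylation and H3K36me2 less often than distant ones. With a gap of under 1 kb (259 peaks, median width 1067 bp), 64.5% touched H3K27ac, 64.9% H3K9ac, 69.9% ATAC-seq and 21.6% H3K36me2. At 1 to 5 kb (827 peaks) H3K27ac reached 80.5% and H3K36me2 27.7%, at 5 to 20 kb (2022 peaks) 88.7% and 41.3%, and at 20 kb or more (14521 peaks) 92.8% and 55.2%. ATAC-seq changed less over these gaps, from 69.9% through 75.9% and 79.4% to 74.6%.

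**Figure D4:**
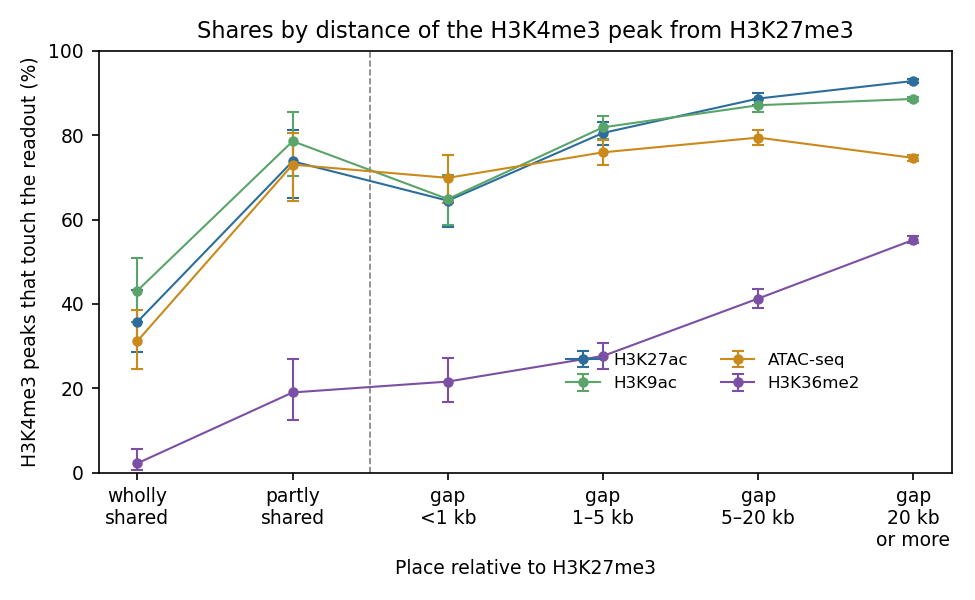
Share of H3K4me3 peaks (y axis, %) that touch H3K27ac, H3K9ac, ATAC-seq or H3K36me2 by place relative to H3K27me3 (x axis), with members left of the dashed line and other peaks, by gap, right of it. Points are shares with exact 95% binomial intervals, and H3K36me2 rises from 2.27% in wholly shared peaks to 55.2% at 20 kb or more.

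Within the 126 members that lay partly outside H3K27me3, acetylation was not kept to the outside part. H3K27ac covered 57.0% of the shared base pairs and 52.7% of the others, and of the 93 peaks with H3K27ac it covered a larger fraction of the shared part in 60 and a smaller one in 31. It lay only outside the shared part in 8 of them. For H3K9ac the coverage was 68.8% and 64.3%, for ATAC-seq 38.4% and 23.0%, and for H3K36me2 12.1% and 15.4%. These coverages pool base pairs, so wide peaks weigh more. Peak by peak, H3K9ac covered a larger fraction of the shared part in 63 and a smaller one in 35. The same counts were 51 and 41 for ATAC-seq, close to even, and 5 and 13 for H3K36me2. Of the 92 members with ATAC-seq in this group, 24 had it only in the shared part and 24 only outside it. Counted in the shared segment alone, 148 of the 302 members touched H3K27ac (49.0%), 166 H3K9ac (55.0%), 123 ATAC-seq (40.7%) and 18 H3K36me2 (5.96%).

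Shares were close in the members found in all 4 lists: 50.0% of the 116 touched H3K27ac (interval 40.6 to 59.4), 56.9% H3K9ac, 45.7% ATAC-seq and 6.03% H3K36me2. Of the 176 members with H3K27me3 in 1 replicate only, 55.7% touched H3K27ac and 11.9% H3K36me2. The low shares were therefore found with H3K27me3 called in either or both replicates.

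A gene end (a window from 3 kb beyond a start or end of a RefSeq gene to 2 kb within the gene) was touched by 180 members (59.6%, interval 53.8 to 65.2), near the 61.9% of the others and the background of 61.9% of all autosomal H3K4me3 peaks. Gene interiors held 68 more (22.5%) and 54 touched neither (17.9%), against 24.9% and 13.2% of the others. Starts alone gave a lower share for members, with a start annotated for 25748 of the 47042 autosomal genes. A window from 3 kb before to 2 kb after an annotated start was touched by 39.7% of members (interval 34.2 to 45.5) and 48.4% of the others. It was touched by 30.7% of the members wholly within H3K27me3 and by 52.4% of those partly outside it. No annotated start lay within the 4 members on chromosome 14, the 16 on chromosome 18 or the peaks at Ccnd1 and Hoxc9. The part of missing starts in these shares was not tested. At gene ends 67.2% of members touched H3K27ac against 94.7% of other peaks there, and away from them 28.7% against 85.9%. The same shares for ATAC-seq were 61.7% against 85.1% and 29.5% against 59.0%. Members at gene ends were also wider (median 1229 bp) than those in interiors (572 bp). An annotated start of 118 of the 25748 autosomal genes with an annotated start lay within 97 of the members.

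A member lay at an end of 232 of 47042 autosomal genes, a background of 0.493%, or 1.68% of the 13771 genes with any H3K4me3 peak at an end. Of these genes 158 were protein coding and 58 lncRNA. Homeobox genes, which specify position and lineage in development, had 6 of 135 with a member (4.44%), among them Hoxb9, Hoxc9, Hoxc10, Lhx2 and Pitx3, out of 38 with H3K4me3 at an end. Ligands and receptors of development had 2 of 95, Pdgfra and Fgf11, and other developmental transcription factors had 1 of 97, Hes5. The T lineage list had 1 of 36 (2.78%), Lef1, or 3.85% of its 26 genes with H3K4me3 at an end, and the tumour suppressor list had 1 of 33, Rb1. The list of Polycomb and trithorax genes had 1 of 30, Kdm6b, which encodes an H3K27 demethylase. No member was found at an end of the 35 effector and helper subset genes, the 15 B lineage genes or the 22 myeloid genes. The 26 neural, epithelial and muscle markers and the 20 housekeeping genes had none either. In these lists 10, 5, 8, 7 and 18 genes had H3K4me3 at an end. Lists this small cannot show an absence beside a background of 1.68% of genes with H3K4me3. Most genes of the homeobox list carried 1 mark or none: 53 had H3K27me3 at an end and 10 had both marks at an end, not always in 1 place.

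The longest overlap in the set, 4461 bp, was at Smad7, an inhibitor of TGF-β signalling, where a peak at chr18:75366391-75370851 lay wholly within H3K27me3 in both replicates. H3K9ac covered 2358 and 2131 bp of it in the 2 replicates, H3K27ac 1403 and 1553 bp and ATAC-seq 200 and 427 bp, and H3K36me2 was not called. Next came the gene of the PDGF receptor α, Pdgfra, with a peak of 4449 bp at chr5:75152812-75157260, of which 4188 bp were shared. Here the replicates differed, with H3K27me3 over 1788 bp in replicate 1 and over 4188 bp in replicate 2, while H3K9ac covered 2398 and 2450 bp and H3K27ac 1311 and 1446 bp. Lef1 had a peak of 3903 bp at chr3:131109626-131113528. H3K27me3 covered 2174 and 2974 bp of it, H3K9ac 2277 and 2294 bp, H3K27ac 1494 and 1583 bp and ATAC-seq 583 and 915 bp, and no H3K36me2 reached it. In all 3 peaks both acetylation marks were called in both replicates, inside a peak that both H3K27me3 replicates touched. These peaks are wide, and all 23 members of 2000 bp or more touched H3K27ac and H3K9ac. Each of these marks also touched 99.98% of other peaks of that width.

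Ccnd1, the gene of cyclin D1, which drives entry into S phase, had a peak of 2243 bp at chr7:144937603-144939845 wholly within H3K27me3 in both replicates. It carried H3K27ac over 1910 and 1686 bp, H3K9ac over 1939 and 2091 bp and ATAC-seq over 257 and 275 bp. Hoxc9, a homeobox gene of the posterior body axis, had the only peak among the 10 longest overlaps that touched H3K36me2. This peak of 2736 bp at chr15:102975811-102978546 carried H3K36me2 over 2736 and 946 bp, beside H3K27me3 over 1589 and 1789 bp and H3K27ac over 2284 and 2302 bp. Rictor also had all marks, with H3K36me2 over 2245 and 1445 bp of a peak of 2397 bp at chr15:6707249-6709645, of which 1751 and 1551 bp were in H3K27me3.

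**Figure D5:**
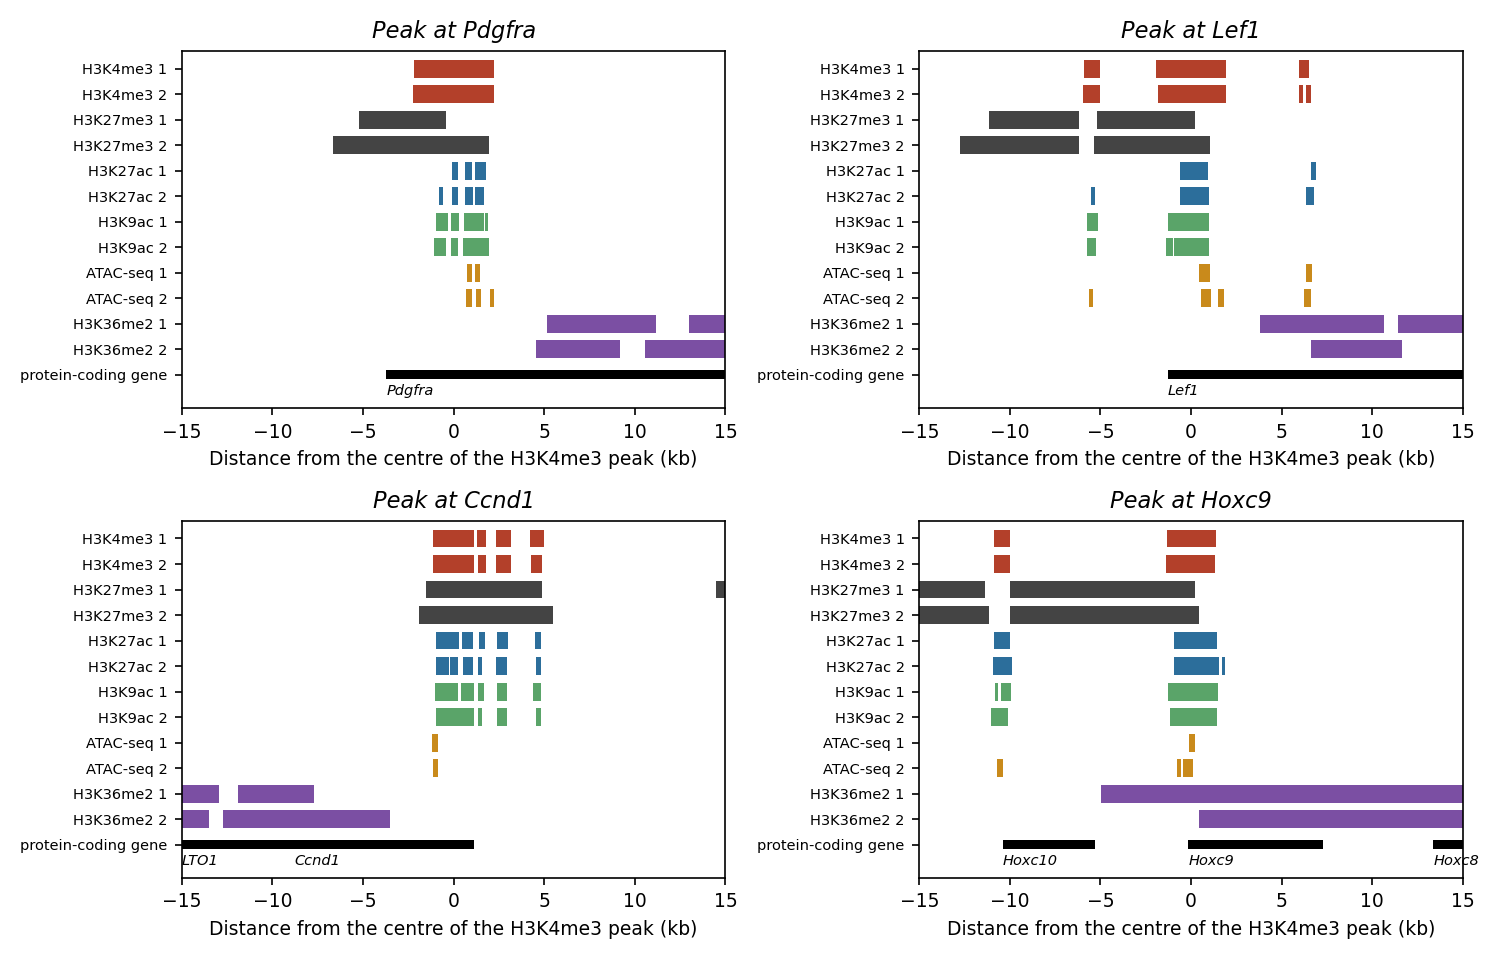
Called intervals of each replicate list (rows) around 4 H3K4me3 peaks, at Pdgfra, Lef1, Ccnd1 and Hoxc9, against the distance from the centre of the peak (x axis, kb, in the direction of the chromosome). Numbers 1 and 2 name replicates and black bars are protein-coding genes. H3K27me3 of both replicates reaches each peak, and the peaks of 4449, 3903 and 2243 bp at Pdgfra, Lef1 and Ccnd1 lie clear of H3K36me2.

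Of the other long overlaps, some rested on both H3K27me3 replicates and some mainly on 1. Add3, for a protein of the membrane skeleton, shared 2023 of 2329 bp, but H3K27me3 covered 223 bp in replicate 1 and 2023 bp in replicate 2. Cdh22 shared all of 1838 bp in both replicates, with H3K9ac over 1380 and 1532 bp and ATAC-seq over 203 bp in replicate 2 only. A peak of 1782 bp beside Hes1, a repressor induced by Notch, lay in H3K27me3 in both replicates with H3K27ac over 1359 and 1366 bp. A peak of 1666 bp on chromosome 11 (chr11:119052930-119054595) touched no gene end and had H3K27me3 over 270 bp in replicate 1 and over 1666 bp in replicate 2. At Fgf11 and at Ccdc148 the shared lengths of 2045 and 1927 bp came from H3K27me3 replicate 1 alone.

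Of the remaining listed genes, Lhx2 had a peak of 1228 bp wholly in H3K27me3 in both replicates, with H3K9ac over 609 and 597 bp and neither H3K27ac nor ATAC-seq. Pitx3 (1493 bp), a homeobox gene of lens and dopaminergic neurons, had H3K27me3 in replicate 2 only, H3K9ac over 684 and 623 bp and H3K27ac over 285 bp in replicate 2 only. Hoxb9 (1592 bp, H3K27me3 in replicate 2 only) had both acetylation marks in both replicates and no ATAC-seq. The Hes5 window was reached by a peak of 1773 bp that holds a start of Pank4. Of the homeobox members named, only that of Hoxc9 had ATAC-seq in both replicates, and Hoxc10 had it over 349 bp in replicate 2. Rb1, the retinoblastoma tumour suppressor, had a peak of 2792 bp that held an H3K27me3 interval of 999 bp called in replicate 2 only.

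Of the 5 widest members, those at Smad7 and Pdgfra are described above, with 100% and 94.1% of their length shared, and the other 3 shared less. The peak at Kdm6b was 6382 bp wide with 604 bp shared (9.46%), that at Sox4, a transcription factor of lymphocyte development, was 5809 bp with 1199 bp shared, and that at Dipk2a was 4920 bp with 1199 bp shared. In each of these 3 H3K27me3 was called in 1 replicate. In these, H3K27ac covered 5322, 4145 and 2506 bp. At the other end, 19 of the 138 members of 1000 bp or more had no H3K27ac, and 10 of these had H3K9ac.

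Several members could share 1 H3K27me3 peak. Groups of 2 or more members were found in 14 H3K27me3 peaks, which together held 33 members. The peak with most members was at Hes1 (chr16:30060401-30074999, 14599 bp), with 5 H3K4me3 peaks of 1782, 281, 330, 943 and 1253 bp. H3K27ac touched 2 of them, those of 1782 and 1253 bp, which lay outside the gene. The peaks of 281, 330 and 943 bp, which touched Hes1 itself, had no H3K27ac, H3K9ac or ATAC-seq. The H3K27me3 peak with the next most members was at Ccnd1 (chr7:144936801-144944199, 7399 bp), with 4 of 2243, 516, 848 and 750 bp, and all 4 touched H3K27ac. The other 12 held 2 members each, among them those at Lef1, Smad7, Hoxc9 with Hoxc10, Fgf11 and Add3.

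At the limit of the rule, the shortest overlaps were 3 bp at chr15:3356444-3356803, 11 bp at Hoxc10, 38 bp at Uevld, 42 bp at Nfil3 and 75 bp at Bahd1. The nearest peaks that were left out lay 19 bp from H3K27me3 at Fam120b, 20 bp at chr11:66984420-66985880, 31 bp at Afap1, 36 bp at Clic4 and 36 bp within Dlg2. Against the bin of 200 bp of the H3K27me3 lists, these 2 sets are not told apart.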

How the data were processed

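ChIP-seq and ATAC-seq of EL4 cells were deposited as 12 peak lists, 2 replicates of each of 6 sets. The input library and RNA-seq were not analysed here. Per the submitters' processing notes and the methods, the authors aligned reads to GRCm38 with STAR 2.5, kept unique alignments, treated duplicates with Picard, and called peaks in each replicate. They used Epic for both broad marks and macs2 for all other sets, and ChIP-seq calls were made against input. The deposited values are the chromosome, start and end of each interval in bp, without score, signal or count. The methods discard reads on the sex chromosomes, yet intervals on chromosome X are in the lists, and only autosomes were used.

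Replicate intervals that overlap or adjoin were merged, and H3K4me3 peaks with at least 1 bp in H3K27me3 were taken (Python 3.11.15, numpy 2.4.6). Bedtools 2.31.1 gave the same 302 regions, and the interval functions were tested on simulated data. A readout touched a peak where they shared at least 1 bp. Intervals for shares are exact (Clopper-Pearson, 95%, scipy 1.17.1). Genes came from RefSeq on GRCm38.p6, whose gene table has no strand, and promoters from its promoter table. Named are the 10 longest overlaps, overall and in all 4 lists, the 5 widest members, genes of fixed lists, the 5 shortest overlaps and nearest misses, and the H3K27me3 peaks with most members. The members and lists were chosen with earlier results of these data known. The mapped loci and printed promoters were picked among the named genes. Some genes that the rule names are not reported here.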

Additional observations from a re-analysis of the deposited data

How the results depend on the processing

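Values were recomputed under each alternative and called moved where they differed by at least 1 SD between replicates (n = 2), or, for the number of members, by over 1.5 times. Of 117 values 42 kept within this and 75 moved, while in all 59 values for readouts the members stayed below the other H3K4me3 peaks, and in all 11 for width they stayed narrower. With base pairs called in both replicates of every set the number of members was 113, their share 0.644%, median width 874 bp, median overlap 595 bp, and the shares with H3K27ac, H3K9ac, ATAC-seq, H3K36me2 and gene ends 45.1, 56.6, 31.9, 1.77 and 54.9%. In the other peaks these shares were 89.5, 85.0, 65.8, 26.7 and 63.3%. With merged peaks that both replicates touch, the share was 1.29%, width 963.5 bp, overlap 672 bp, H3K27ac 49.1%, ATAC-seq 39.3% and H3K36me2 7.94%. With an overlap of at least 200 bp the share was 1.56%, width 924 bp, overlap 675 bp, H3K27ac 52.3% and ATAC-seq 47.3%. With at least 50% of the H3K4me3 peak shared, the share was 1.35%, width 805.5 bp, overlap 719.5 bp, H3K27ac 47.5%, H3K9ac 53.7%, ATAC-seq 42.6% and H3K36me2 5.79%. With intervals up to 1000 bp apart merged, the share was 1.84%, width 989 bp, overlap 666 bp, H3K27ac 54.0%, H3K9ac 60.1%, ATAC-seq 50.2% and H3K36me2 10.7%. With H3K4me3 peaks of at least 500 bp, the share was 1.51%, width 1196 bp, overlap 825 bp, H3K27ac 67.9%, H3K9ac 76.9%, ATAC-seq 60.6%, H3K36me2 12.2% and gene ends 67.0%, since narrow peaks are then left out. Within the shared segment, H3K27ac was 49.0%, H3K9ac 55.0% and ATAC-seq 40.7%. These values are among the 59, but they set a part of each member against the whole width of the other peaks. That setting can only lower the members, so it does not test the difference. Gene windows of 1 kb to either side gave 51.7% of members and 54.7% of the others, and protein-coding genes alone 46.7% and 52.2%.

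Leaving out 1 replicate at a time gave 203 to 294 members, a share of 1.13 to 1.64%, widths of 900 to 933 bp and overlaps of 561 to 642 bp. It gave H3K27ac at 48.4 to 54.0%, H3K9ac at 54.2 to 60.7%, ATAC-seq at 40.1 to 50.7%, H3K36me2 at 6.62 to 9.52% and gene ends at 54.7 to 61.6%. Of 2 alternatives chosen after seeing the data, broad intervals longer by 1 bp left 302 members, and members in all 4 lists gave H3K27ac 50.0%, ATAC-seq 45.7% and H3K36me2 6.03%. Where no cause is given, the cause was not tested. No paired analysis was possible because no result comes from a test.

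Depth is unknown, so a peak that was not called is not shown to be absent, and every region that rests on 1 H3K27me3 replicate is limited by it.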

Other observations

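Transfer RNA genes were met by 3 members on chromosome 13 (chosen after their values were seen), at n-TEctc11 (2940 bp, 1410 bp shared), n-TAagc19 (1656 bp, 619 bp shared) and n-TMcat13 (1117 bp, 327 bp shared). One of the 3, at n-TEctc11, touched H3K27ac, 2 touched H3K9ac, and none lay wholly within H3K27me3. Transfer RNA genes are transcribed by RNA polymerase III, and 4 of the 391 autosomal ones in the table had a member at an end.

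Inside the T cell factor gene Tcf7, which had H3K4me3 and H3K27ac at its end, a member of 327 bp lay in H3K27me3 and carried H3K36me2 in both replicates. H3K4me3 and H3K27me3 were called there in replicate 1 only, and H3K27ac (231 bp) and H3K9ac (265 bp) in replicate 2 only. It was chosen after its values were seen.

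Chromosome X, left out of the report, held 2 H3K4me3 peaks with H3K27me3 among 540 (0.370%). The 103 H3K4me3 peaks on unplaced scaffolds touched no H3K27me3 interval.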
